A study of Mus musculus with 12 samples.

Results

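The probes considered here measure transcripts of mouse chromosome 9 on either side of Il18, the gene for interleukin-18, an inflammatory cytokine. They are the 539 non-control array probes whose mapped position on the mm9 build lies between chr9:40389791 and chr9:60389791, out of 55681 non-control probes on the array. Of the 563 probes in that window, 24 were left out by their 18 gene names: Il18 itself, Usp2, Hyou1, Sc5d, Sdhd and genes whose names start with Cd3, Apo, Cyp, Cox or Atp5. The rule uses no measured value. Of the 539, 299 were bright enough to be tested, meaning that some group had all 3 of its arrays well above background, and these covered 157 distinct named genes. The nearest tested probe inside the lower end lay 9.82 Mb below Il18, with a log2 genotype difference averaged over ages of -0.40, and the nearest outside it lay 10.1 Mb below, with 0.03. At the upper end the nearest probe inside lay 9.99 Mb above Il18, with 0.02, and the nearest outside was that of Uaca at 10.3 Mb, with 0.35.

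The 12 arrays held RNA from whole livers of untreated BALB/c mice. There were 3 wild type arrays and 3 interleukin-18 knockout arrays from animals 6 weeks old, and 3 and 3 from animals 12 weeks old. The labels call the arrays of a group biological replicates. Which part of Il18 was removed, the embryonic stem cell strain, the backcrossing of the knockout line, the sex of the animals and the time of day are not given in the sources used here. Whole liver mixes cell types, so fewer cells of a type and less RNA per cell cannot be told apart.

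As background, a gene knockout made in embryonic stem cells is commonly moved to another strain by repeated backcrossing. Selection for the altered gene keeps a stretch of the donor chromosome around it, and recombination shortens that stretch on each side over the generations. A strain difference near the altered gene can then travel with it. An array probe is a 60-base strand of DNA that binds labelled copies of a transcript, and its signal depends on the amount of that transcript and on how well its bases match. The DNA of these animals was not measured, and the part of flanking DNA in the results was not tested.

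The probes of 4 genes are shown because the probes of each gene gave unequal genotype differences, and those of Bco2 and Tex12 because they lie nearest below Il18. For each, the middle 30 bases (bases 16 to 45 of 60) are printed 5′ to 3′ as the array files give them, in lower case throughout since no base is singled out. Within a gene the lower and upper probes are those of lower and higher coordinate on mm9.
Sorl1 lower probe: ctcggctaggtttccaagtcactgatttct
Sorl1 upper probe: taaaagatgcactttgagttgcaatatgtt
Rps25 lower probe: ggtctcaaagcacagagcccaagtaattta
Rps25 upper probe: tttattgaatcaaatgaatgggtgcatctg
Ift46 lower probe: acagactgctctgtcaggttgtgatggaat
Ift46 upper probe: ggcttgattgactccaggacaaatacgtag
Atm lower probe: gactgagttagaaaatctttctgacaggtt
Atm upper probe: agaagatacaggccaaatgatttcagtgcc
Bco2 probe: gatcatatttaaattcttgttcccagcttg
Tex12 probe: ccaacaccctacacaagtaatgtgcctatg
The whole Sorl1 probes lie at chr9:41772997-41773056 and chr9:41776572-41776631 on the minus strand, and those of Rps25 at chr9:44216951-44218094, across a gap in the alignment, and chr9:44218247-44218306 on the plus strand. Those of Ift46 lie at chr9:44598913-44598972 and chr9:44600737-44600796 on the plus strand, and those of Atm at chr9:53245871-53245930 and chr9:53256167-53256226 on the minus strand. The Bco2 probe lies at chr9:50341275-50341334 and the Tex12 probe at chr9:50365427-50365486, both on the minus strand.

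Levels below are log2 of the processed signal relative to the array's 75th percentile, so that 0 is a probe at that percentile. A probe is called where limma's p, adjusted over all 29806 tested probes by the Benjamini-Hochberg method, is under 0.05. The targeted gene was lower in every knockout array. The Il18 probe read 2.44, 2.41 and 2.35 in wild type and -0.02, -0.04 and -0.37 in knockout at 6 weeks. At 12 weeks it read 2.25, 2.15 and 2.49 against -0.03, -0.12 and 0.04. This was 5.81-fold lower in knockout at 6 weeks and 5.05-fold lower at 12 weeks (limma, adjusted p 2.6e-06 and 1.57e-05), and the probe stayed well above background on all 12 arrays. Without knowledge of the deleted part, the probe may lie outside it. A fold written as "at least" raises each value of the dimmer group that is not well above background to the lowest level well above background on its array, where that is higher. For groups with only some such arrays, this was chosen after seeing the data. The 75th percentile ran from 349 to 420 in scanner units, and 50.1% to 57.7% of spots were well above background. The 6-week wild type arrays and replicate 1 of the 12-week wild type shared slide 1, and the other 8 arrays shared slide 2. At 6 weeks slide and genotype therefore cannot be told apart except through that replicate, and at 12 weeks the genotypes were also compared within slide 2. By the array barcodes, the 12-week wild type arrays of slide 2 lay in its row 1 and the 12-week knockout arrays in its row 2. Row and genotype thus cannot be told apart within slide 2 at 12 weeks. The summed level of 4 hepatocyte markers (Alb, Ttr, Fgb and Serpina1a) ran from 3773 to 4837 times the 75th percentile over all arrays, as for liver. That of 5 erythroid markers, 4 of them tested, was 53 to 58.8 in 6-week wild type and 95.6 to 146 in 6-week knockout (3 called higher and 1 lower), and at 12 weeks 66 to 85.8 against 102 to 139 (3 called higher). For 4 cholangiocyte markers the sum was 0.543 to 0.57 in wild type and 0.737 to 1.04 in knockout at 6 weeks (1 called higher), and it overlapped at 12 weeks. For 3 adipocyte markers, of which Plin1 was well above background on no array, it was 0.152 to 0.267 against 1.03 to 1.56 at 12 weeks (none called) and overlapped at 6 weeks. The B cell sum at 12 weeks (1.26 to 1.87 against 1.13 to 1.23) and the pancreas sum at 6 weeks (9.75 to 11.7 against 8.49 to 9.41) were apart with no marker called, and Pnlip of the pancreas list was well above background on no array. Kupffer, endothelial and stellate sums overlapped at both ages, with 1 endothelial and 1 stellate marker called lower at 6 weeks. The part of these cells in the members' results was not tested.

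Genes around Il18 differed between the genotypes in both directions, and the same probes often differed the same way at both ages. At 6 weeks 92 of the 299 tested members were called (30.8%, against 19.8% of all tested probes). Of these, 43 were higher in knockout (14.4% of members, against 11.3%) and 49 lower (16.4%, against 8.48%). At 12 weeks 51 were called (17.1%, against 7.27%), 28 higher (9.36%, against 5.16%) and 23 lower (7.69%, against 2.11%). In the average of both ages 98 were called (32.8%, against 19.1%), 49 higher (16.4%, against 12.2%) and 49 lower (16.4%, against 6.92%). Of the 98, 23 differed at least 2-fold (7.69% of members, against 1.36% of all). The members had no common direction: their median log2 difference was 0.00 at 6 weeks and 0.01 on average, where all probes had 0.02 and 0.03. Their median size without sign was 0.29 at 6 weeks and 0.25 at 12 weeks, against 0.23 and 0.18 over all probes.

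The genotype comparisons of the 2 ages share no array. They do share the same estimate of each probe's spread, taken over all 12 arrays, and so are not fully independent. In these comparisons 32 members were called in the same direction at both ages (10.7%, against 1.38% of all tested probes), 15 higher (5.02%, against 0.939%) and 17 lower (5.69%, against 0.443%). A further 6 were called at both ages in opposite directions (2.01%, against 0.933%). The 32 hold 25 named genes. Among these, Sorl1, Fxyd6, Jaml, Rnf214, Sidt2, Tex12, Nkapd1, Poglut3 and Senp8 were higher in knockout. Those lower were Trappc4, Rps25, Tmem25, Cep164, Sik3, Nxpe2, Nxpe4, Plet1, Bco2, Cryab, Atm, Slc35f2, Rcn2 and Cd276, and Ift46 had a probe of each kind. Rps25, Cep164 and Senp8 each had a further probe that was not called on average, and of the 3 tested Sik3 probes only 1 was. Cep164, Sik3, Rcn2 and Poglut3 are named because they belong to this count and were picked after their values were seen. Nxpe4, the transcript LOC100502818 and the upper Ift46 probe entered the tests only through groups in which they were high, so their calls are no support. On the remaining chromosomes the share called alike at both ages lay between 0.599% and 1.70%.

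The slide bore on these counts. With slide as a fixed block, estimated from the lone 12-week wild type array of slide 1, 22 members were called at 6 weeks (7.36%, against 2.4% of all probes) and 16 alike at both ages (5.35%, against 0.319%). With slide as a random block the count alike at both ages was 21 (7.02%, against 0.5%). Among the named genes called alike, 6-week calls ended under either block for Jaml, Sidt2, Nkapd1, Cryab, Poglut3, Cd276 and Senp8. They also did so for both Ift46 probes and a Cep164 probe. Those of Rnf214, Sik3, Slc35f2, Rcn2 and another Cep164 probe ended under the fixed block only. Within slide 2 alone, where genotype and slide row go together, 11 members were called at 12 weeks (3.68%, against 0.272%). Every one of the 32 members called alike kept its sign there, at 0.807 to 1.22 times its size over all arrays, and 9 of them were called, namely both probes of Sorl1, Tmem25, Fxyd6, Nxpe2, Nxpe4, Plet1, Bco2 and the upper probe of Rps25. With any 1 array left out, 18 of the 32 stayed called at both ages.

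**Figure D1:**
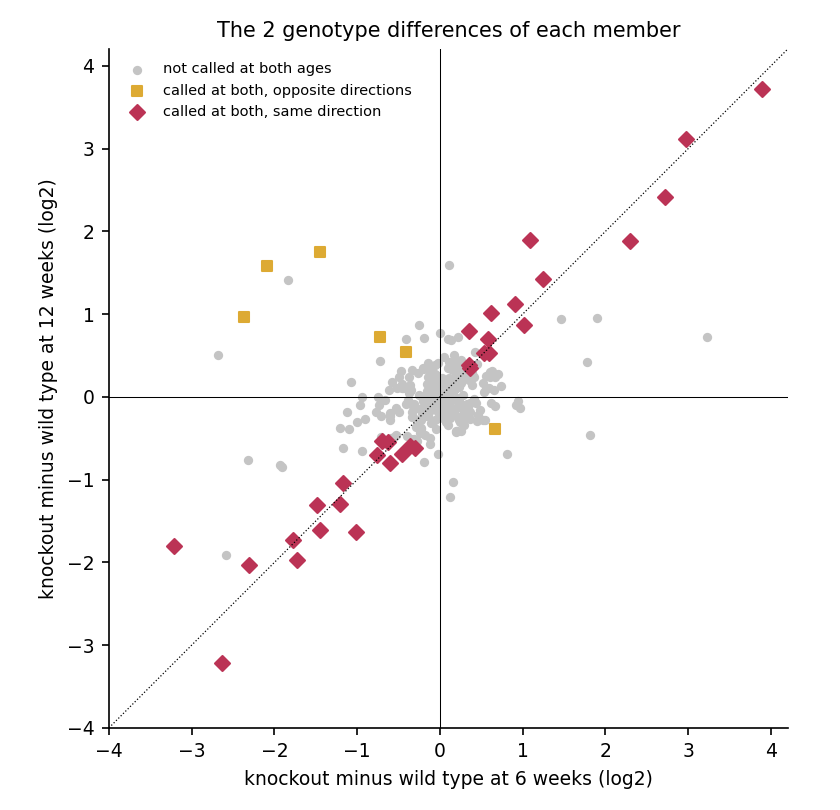
Knockout minus wild type at 6 weeks (horizontal, log2) against the same at 12 weeks (vertical, log2) for each of the 299 tested members; the dotted line marks equal differences. The 32 red diamonds, called in the same direction at both ages, lie below 0 at both ages or above 0 at both, from Tmem25 (-3.21 and -1.81) and Nxpe4 (-2.64 and -3.21) to the upper Sorl1 probe (3.89 and 3.72), and the 6 yellow squares were called in opposite directions. Nxpe4 was well above background on no knockout array.

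Members called alike at both ages lay from 8.62 Mb below Il18 to 9.19 Mb above it, and were a larger share below than above. Below Il18 22 of 131 tested members were called alike (16.8%), and above it 10 of 168 (5.95%), where 1.38% of all tested probes were. Going down from Il18 the counts were 3 of 4 within 1 Mb, 2 of 17 from 1 to 2.5 Mb, 6 of 22 from 2.5 to 5 Mb, 8 of 67 from 5 to 7.5 Mb and 3 of 21 from 7.5 to 10 Mb. The nearest bin holds only 4 probes. Going up, the counts were 4 of 25 within 1 Mb (16%), 0 of 17 from 1 to 2.5 Mb, 3 of 37 from 2.5 to 5 Mb, 1 of 50 from 5 to 7.5 Mb and 2 of 39 from 7.5 to 10 Mb. At an unadjusted p under 0.05 (limma) at each age, 1 of the 17 from 1 to 2.5 Mb above went the same way (5.88%, against 6.68% of all tested probes). The share thus did not fall evenly with distance on either side. In bins of 2 Mb the largest shares were 11 of 42 from 4 to 6 Mb below (26.2%) and 2 of 8 from 2 to 4 Mb below (25%), and from 4 to 10 Mb above every bin had 1 member called alike.

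Beyond the window the share on the lower side was 4 of 104 from 10 to 20 Mb (3.85%) and 6 of 184 from 20 to 40 Mb (3.26%). On the upper side it was 1 of 141 from 10 to 20 Mb (0.709%) and 0 of 175 from 20 to 40 Mb. Of these 175, 4 went the same way at an unadjusted p under 0.05 (limma) at each age (2.29%, against 6.68% of all tested probes). More than 40 Mb away it was 4 of 38 below (10.5%) and 7 of 464 above (1.51%). The whole rest of chromosome 9 had 22 of 1106 called alike (1.99%) and 22% called on the average of both ages. The other 19 chromosomes had 17% to 21.5% called on the average.

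**Figure D2:**
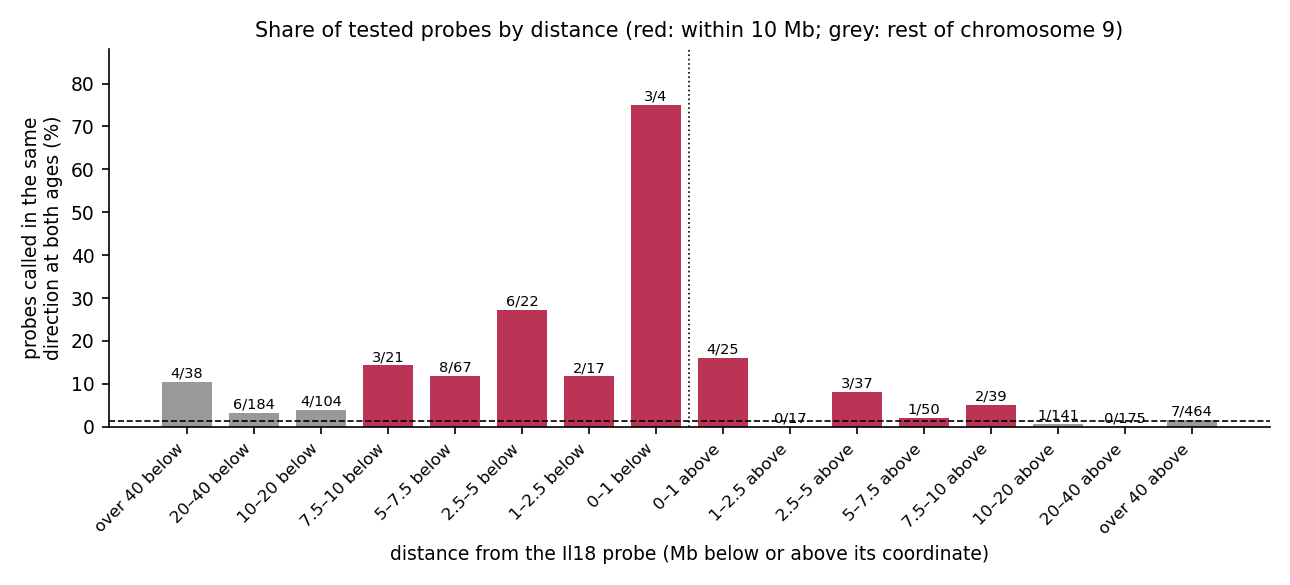
Share of tested probes called in the same direction at both ages (vertical, %) by distance from the Il18 probe (horizontal, Mb below or above it), with the count over the number tested on each bar and the share over all probes, 1.38%, as a dashed line. Red bars are members and grey bars the rest of chromosome 9; the tallest bar, 3 of 4, rests on 4 probes.

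Named genes carried most of the calls. Of 201 tested probes of named genes 78 were called on average (38.8%, against 21.5% of all such probes) and 28 alike at both ages (13.9%, against 1.73%). Other transcripts, such as clones and predicted genes, had 17 of 62 called on average (27.4%, against 16.5%) and 4 alike at both ages (6.45%, against 1.04%). Intergenic noncoding probes had 3 of 36 called on average (8.33%, against 14.3%) and 0 alike at both ages by limma's adjusted p (against 0.604%). At an unadjusted p under 0.05 (limma) at each age, 1 of the 36 went the same way (2.78%, against 6.68% of all tested probes of any kind).

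**Figure D3:**
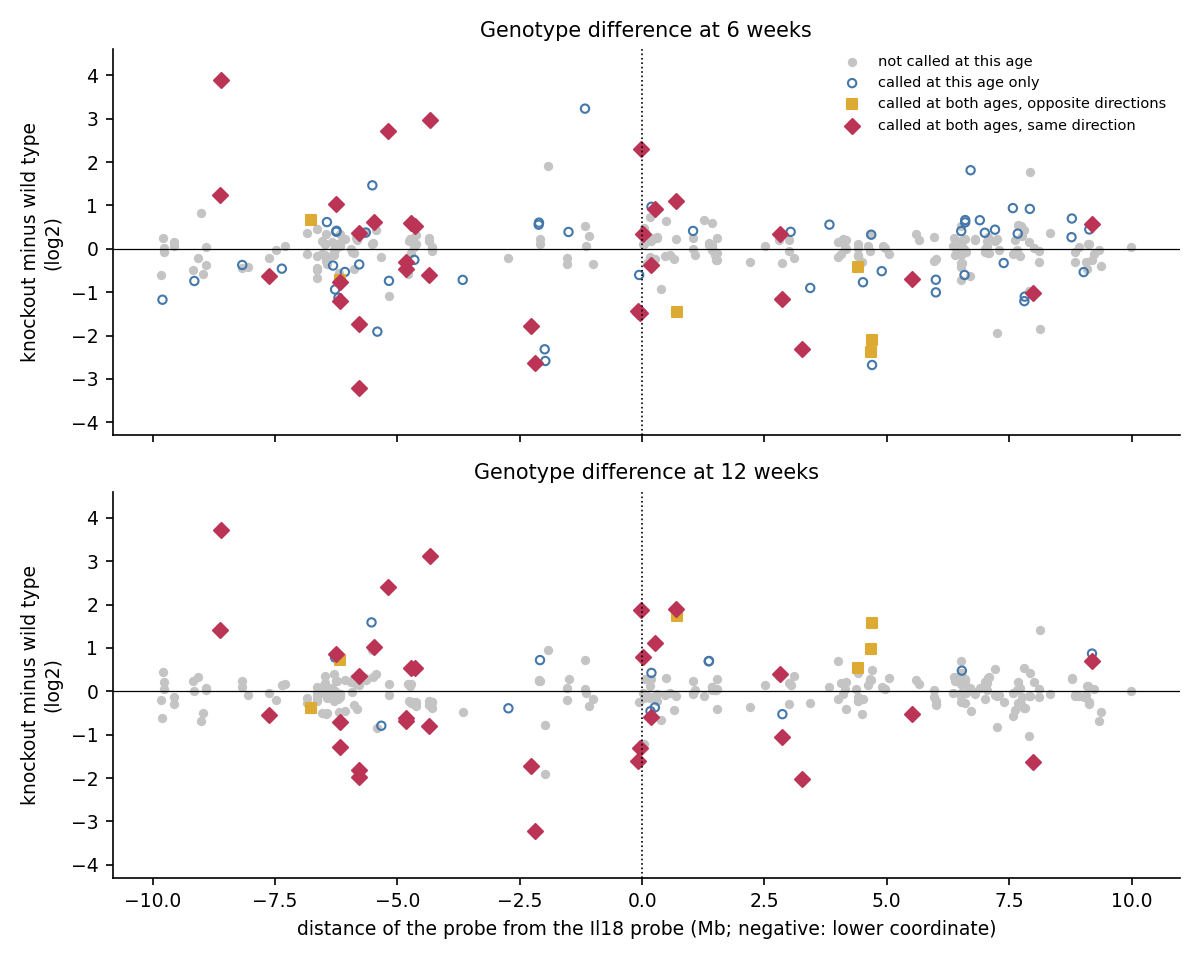
Knockout minus wild type (vertical, log2) at 6 weeks (top) and 12 weeks (bottom) for each tested member by its distance from the Il18 probe (horizontal, Mb), which the dotted line marks. Red diamonds were called in the same direction at both ages, yellow squares in opposite directions, open circles at that age only. Large differences of both signs occur from the Sorl1 probes 8.61 Mb below to Nrg4 4.68 Mb above. Further up, Cd276 at 7.98 Mb had -1.635 at 12 weeks.

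Among the 16 named genes within 0.5 Mb of Il18, all of which were tested, 4 were higher and 5 lower in knockout on average (25% and 31.2%, against 12.2% and 6.92% of all tested probes), with a median log2 difference of 0.04. In this and the gene groups below, a gene counts by its tested probe of highest mean level. The largest differences were those of Tex12, Plet1 and Bco2, all just below it. Tex12, a protein of the synaptonemal complex that joins chromosomes in meiosis, lies 0.0243 Mb below Il18. Its level was -2.33, -2.54 and -3.02 in wild type and -0.29, -0.20 and -0.52 in knockout at 6 weeks. Its 12-week levels were -2.46, -2.58 and -2.88 against -1.02, -0.85 and -0.39. Every knockout array was above every wild type array, and Tex12 was 4.91-fold higher at 6 weeks and 3.68-fold higher at 12 weeks (limma, adjusted p 0.000166 and 0.00207).

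Bco2, a mitochondrial enzyme that cleaves carotenoids, lies 0.0485 Mb below Il18. It read 2.02, 2.20 and 2.09 in wild type and 0.58, 0.65 and 0.60 in knockout at 6 weeks. The 12-week arrays read 1.88, 1.80 and 2.05 against 0.68, 0.53 and 0.59. The genotypes were far apart and the ages alike: Bco2 was 2.81-fold lower at 6 weeks and 2.48-fold lower at 12 weeks (limma, adjusted p 1.31e-05 and 4.99e-05). Plet1, a glycoprotein of epithelial and placental surfaces 0.0767 Mb below Il18, read -0.07, -0.34 and -0.68 against -1.84, -1.72 and -1.85 at 6 weeks. On the 12-week arrays it read 0.05, -0.16 and -0.28 against -1.81, -1.80 and -1.62, again with no overlap. It was 2.72-fold and 3.04-fold lower in knockout (limma, adjusted p 0.000285 and 0.000625).

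Pts, which makes a precursor of tetrahydrobiopterin, was 1.52-fold lower at 6 weeks (adjusted p 0.00509), and at 12 weeks its genotypes overlapped, with a log2 difference of -0.24 ± 0.11 (SE). Of the genes just above Il18, Nkapd1, 0.0236 Mb away, was 1.28-fold higher at 6 weeks and 1.74-fold higher at 12 weeks (adjusted p 0.0416 and 0.00384). Its 6-week call ended with any of 7 arrays left out, up to an adjusted p of 0.13 without replicate 1 of the 6-week wild type, and also with slide as a fixed or a random block. Dlat, the acetyl-transferring subunit of pyruvate dehydrogenase, was 1.26-fold higher on average (adjusted p 0.0336), and this call ended with any of 6 arrays left out, up to 0.0733 without replicate 1 of the 12-week knockout. The small heat shock protein Cryab was 1.39-fold lower on average (adjusted p 0.0025), while its neighbour and relative Hspb2 had a log2 difference of 0.44 ± 0.17 (SE) that was not called. Alg9, a mannosyltransferase that builds the glycans of proteins, was 1.23-fold lower (adjusted p 0.006) and Fdxacb1 1.26-fold higher (adjusted p 0.0166). The average differences of the probes that stand for Timm8b, Pih1d2, Dixdc1, Ppp2r1b, Sik2 and Layn, from -0.22 to 0.16, did not pass the test. The other probes of Pih1d2, Sik2 and Layn had -0.55, -0.80 and 0.47, also not called.

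Among enzymes of metabolism, 21 of 23 genes in the window were tested, and on average 6 were higher and 5 lower in knockout (28.6% and 23.8%, where the shares of all tested probes are again 12.2% and 6.92%), with a median log2 difference of 0.04 beside 0.03 over all probes. The lower ones were Bco2, Pts, Alg9, Hexa and Nnmt, and the Hexa call ended with any of 5 arrays left out, up to an adjusted p of 0.0674.

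Nnmt, which methylates nicotinamide, is represented by 2 probes 1.99 and 1.98 Mb below Il18. Its lower probe read 3.81, 2.92 and 3.49 in wild type and 0.32, 1.98 and 0.97 in knockout at 6 weeks, a 4.99-fold fall (adjusted p 0.00569). The later age gave levels of 3.15, 4.0 and 3.1 against 2.53, 2.29 and 3.13, where the genotypes overlapped and the difference was not called. Its upper probe was 6.01-fold lower at 6 weeks (adjusted p 0.0329), or at least 5.36-fold since 1 of the 3 knockout arrays was not well above background. This was a call that ended with any of 5 arrays left out, with an adjusted p of 0.101 and a log2 difference of -1.89 without replicate 1 of the 6-week knockout. Fdx1, a ferredoxin that passes electrons to mitochondrial P450 enzymes, gave like values with both of its probes. At 6 weeks their log2 differences were 0.14 ± 0.10 and 0.09 ± 0.09 (SE), neither called, and at 12 weeks both were higher in knockout, 1.61-fold and 1.62-fold (adjusted p 0.00542 and 0.00334).

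Among channels, transmitter receptors and adhesion proteins, 15 of 24 genes were tested. On average 3 were higher and 2 lower (20% and 13.3%, against 12.2% and 6.92% of all tested probes), with a median log2 difference of 0.14. Fxyd6, a small regulator of the sodium pump 5.19 Mb below Il18, read -1.24, -1.0 and -0.98 in wild type and 1.5, 1.69 and 1.75 in knockout at 6 weeks. At 12 weeks it read -1.05, -0.72 and -0.60 against 1.78, 1.5 and 1.57. The groups were widely separate, with the knockout 6.59-fold higher at 6 weeks and 5.31-fold higher at 12 weeks (limma, adjusted p 4.37e-06 and 1.88e-05). Its relative Fxyd2 was among the 2 lower genes, with Cadm1, an adhesion molecule of the immunoglobulin family that was 1.31-fold lower at 12 weeks (log2 difference -0.39, adjusted p 0.0147). The average Fxyd2 call (log2 difference -0.42) ended with any of 11 arrays left out, up to an adjusted p of 0.107. The Cadm1 call at 12 weeks ended without replicate 3 of the 12-week knockout, at an adjusted p of 0.0621.

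Mpzl2, an adhesion protein of epithelial junctions, differed only at the later age in the test. It read 3.91, 3.74 and 3.92 in wild type and 3.99, 3.78 and 4.12 in knockout at 6 weeks, where the genotypes overlapped. Its 12-week levels were 3.25, 3.26 and 3.54 against 5.11, 4.89 and 4.82, which was 3.01-fold higher (limma, adjusted p 0.000196). The difference between the ages itself passed the test (log2 1.48 ± 0.17, SE, adjusted p 0.00117). Its neighbour and relative Mpzl3 had a probe at least 2.09-fold higher at 6 weeks (adjusted p 0.00637) that was well above background on only 1 of the 3 wild type arrays there. Another Mpzl3 probe had log2 differences of 0.14 and 0.34, neither called, and was called on average (0.24, adjusted p 0.0477), which ended with any of 9 arrays left out, up to 0.105.

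Of 12 genes for immune receptors and regulators 10 were tested. On average 1 was higher and 2 lower (10% and 20%, against 12.2% and 6.92% of all tested probes), with a median log2 difference of -0.05. Jaml, an adhesion molecule of leukocytes, read -1.25, -1.29 and -0.95 in wild type and -0.62, -0.75 and -0.27 in knockout at 6 weeks. The 12-week arrays read -1.38, -1.35 and -1.43 against 0.05, -0.74 and -0.43. All knockout arrays were higher, by 1.53-fold and 2.02-fold (limma, adjusted p 0.0473 and 0.0142). The 6-week call ended with any of 10 arrays left out, up to an adjusted p of 0.141 without replicate 3 of the 6-week knockout. Cd276, a checkpoint molecule of the B7 family, was 2.02-fold lower at 6 weeks and 3.11-fold lower at 12 weeks (adjusted p 0.0175 and 0.00543). It lost its 6-week call with any of 3 arrays left out, up to 0.0582 without replicate 3 of the 6-week knockout. The 6-week calls of Jaml and Cd276 also ended with slide as a fixed or a random block.

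Il10ra, a chain of the interleukin-10 receptor, read -1.43, -1.46 and -1.50 in wild type and -1.67, -1.60 and -1.72 in knockout at 6 weeks. On the 12-week arrays it read -0.83, -0.90 and -0.97 against -1.74, -1.84 and -1.50. The wild type arrays of 12 weeks thus stood above all others, and the genotype difference was called at 12 weeks only (1.73-fold lower, limma, adjusted p 0.00244, against log2 -0.20 at 6 weeks). In the same 12-week arrays the summed level of 8 natural killer and T cell markers, 6 of them tested, was 60.9 to 97.3 in wild type and 34.3 to 45 in knockout, with 3 of the 6 called lower. At 6 weeks the sums were 61.9 to 63.2 against 42.4 to 57.8, with 1 called higher. The part of these cells in the Il10ra and Jaml results was not tested.

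Of 17 genes for proteases and protein sorting 15 were tested, 5 higher and 4 lower on average (33.3% and 26.7%, against 12.2% and 6.92% of all tested probes). The median log2 difference was -0.02. Sorl1, an endosomal sorting receptor that binds the amyloid precursor protein, had the largest difference of the members. Its upper probe read -3.06, -2.98 and -3.62 in wild type and 0.50, 0.91 and 0.62 in knockout at 6 weeks. The levels at 12 weeks were -3.08, -3.22 and -2.43 against 0.73, 0.67 and 1.03. With no overlap, this was 14.9-fold higher at 6 weeks and 13.2-fold higher at 12 weeks (limma, adjusted p 1.49e-05 and 3.49e-05). Its lower probe was higher by 2.37-fold and 2.67-fold (adjusted p 0.000209 and 0.000313).

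Trappc4, a subunit of the TRAPP complex that tethers transport vesicles, read 4.06, 4.15 and 4.10 against 3.40, 3.36 and 3.25 at 6 weeks. In the older animals it read 3.85, 3.99 and 4.10 against 3.28, 3.29 and 3.25. It was 1.7-fold and 1.63-fold lower in knockout with no overlap (limma, adjusted p 0.000332 and 0.00216). Tmprss4, a serine protease of the cell surface, was well above background on no 6-week knockout array. There it was at least 2.13-fold lower than in wild type (mean level -3.46 ± 0.47, SD, n = 3, in wild type and -5.38 ± 0.37 in knockout; limma, adjusted p 0.00104). Pcsk7, a proprotein convertase, was 1.21-fold lower on average (adjusted p 0.012), and the average difference of Bace1, the beta-secretase, was -0.02.

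Of 14 genes of DNA repair, chromatin and the cell cycle 12 were tested. On average 4 were higher and 1 lower (33.3% and 8.33%, against 12.2% and 6.92% of all tested probes), with a median log2 difference of 0.11. The lower one was Atm, the kinase that signals DNA double-strand breaks, 2.86 Mb above Il18. Its lower probe read -0.72, -0.67 and -0.93 in wild type and -1.90, -1.96 and -1.96 in knockout at 6 weeks. The later age gave levels of -0.90, -0.97 and -0.80 against -1.95, -1.70 and -2.16. The genotypes were separate at both ages, at 2.25-fold and 2.06-fold lower (limma, adjusted p 0.000272 and 0.00211). Its upper probe had smaller differences of -0.33 ± 0.12 (SE, not called) at 6 weeks and -0.53 ± 0.12 at 12 weeks (adjusted p 0.0292). The 12-week call of the upper probe ended with any of 4 arrays left out, up to an adjusted p of 0.105 without replicate 3 of the 12-week knockout. Rexo2, a mitochondrial oligoribonuclease, was higher with both probes at 6 weeks, by 1.47-fold and 1.52-fold (adjusted p 0.00627 and 0.00356). Neil1, a glycosylase of base excision repair, was 1.58-fold higher at 6 weeks (adjusted p 0.00263), and at 12 weeks neither gene was called.

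All 14 genes for kinases, phosphatases and chaperones were tested and 1, Cryab, was called on average, lower in knockout (7.14%, against 6.92% of all tested probes), with a median log2 difference of 0.01. Sik3, a salt-inducible kinase, entered that count with a probe that was not called. Another Sik3 probe was 1.52-fold lower at 6 weeks and 1.74-fold lower at 12 weeks (limma, adjusted p 0.00132 and 0.00151). Of the 3 tested Sik3 probes only 1 was called on average.

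Several members with large differences belonged to none of these groups. Nxpe4 and Nxpe2, of the neurexophilin and PC-esterase family, lie 2.18 and 2.26 Mb below Il18 and were both lower in knockout. Nxpe2 read 1.44, 1.45 and 1.63 against -0.26, -0.29 and -0.25 at 6 weeks, and 1.31, 1.28 and 0.97 against -0.45, -0.61 and -0.57 at 12 weeks. This was 3.43-fold and 3.32-fold lower with no overlap (limma, adjusted p 1.3e-05 and 2.25e-05). For Nxpe4, 2 of the 3 wild type arrays at 6 weeks, all 3 at 12 weeks and no knockout array were well above background. Its mean level was -4.10 ± 0.16 (SD, n = 3) in wild type and -6.74 ± 0.13 in knockout at 6 weeks, and -3.62 ± 0.35 and -6.84 ± 0.06 at 12 weeks. The knockout was thus lower by at least 1.37-fold at 6 weeks and by at least 2.08-fold at 12 weeks. Nxpe4 entered the tests only through the 12-week wild type, where it was high, so that its p is no support and is not given.

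Tmem25, a membrane protein with an immunoglobulin domain, read 3.40, 3.32 and 3.28 in wild type and 0.41, 0.39 and -0.43 in knockout at 6 weeks. At 12 weeks it read 3.06, 3.31 and 3.34 against 1.43, 1.44 and 1.41. It was 9.26-fold lower at 6 weeks and 3.49-fold lower at 12 weeks (limma, adjusted p 1.63e-05 and 0.00173), and the 2 differences were unlike (log2 1.41 ± 0.27, SE, adjusted p 0.0115). Slc35f2, a solute carrier 3.28 Mb above Il18, read -2.53, -2.62 and -3.01 in wild type at 6 weeks and was well above background on no 6-week knockout array, which read -6.16, -4.43 and -4.49. It was at least 3.35-fold lower there (adjusted p 0.00443), a call that ended with slide as a fixed block. Its 12-week levels were -1.10, -0.58 and -1.36 against -2.91, -3.06 and -3.16, which was 4.08-fold lower (adjusted p 0.0167). The 12-week call ended with either of 2 arrays left out, up to 0.0629 without replicate 3 of the 12-week knockout.

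LOC100502818, an unnamed transcript on the minus strand 4.34 Mb below Il18 and next to the plus-strand gene Apoa4, read -4.0, -4.12 and -3.75 in wild type and -1.03, -1.12 and -0.80 in knockout at 6 weeks. The 12-week arrays read -3.49, -3.34 and -5.42 against -0.84, -1.11 and -0.96. At each age 1 wild type array was not well above background, and the knockout was at least 7.52-fold and 7.4-fold higher. The transcript was picked after its values were seen. It entered the tests only through knockout arrays, where it was high, so that its p is no support and is not given. Ankk1, a predicted kinase, was well above background on the 6-week knockout arrays alone, where replicate 1 read 0.10 and the other two -3.95 and -3.71. It was at least 3.38-fold higher there than in wild type, and at least 1.36-fold without replicate 1 of the 6-week knockout, a comparison added after seeing the data. It entered the tests only through the group in which it was high, so that its p is no support and is not given.

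**Figure D4:**
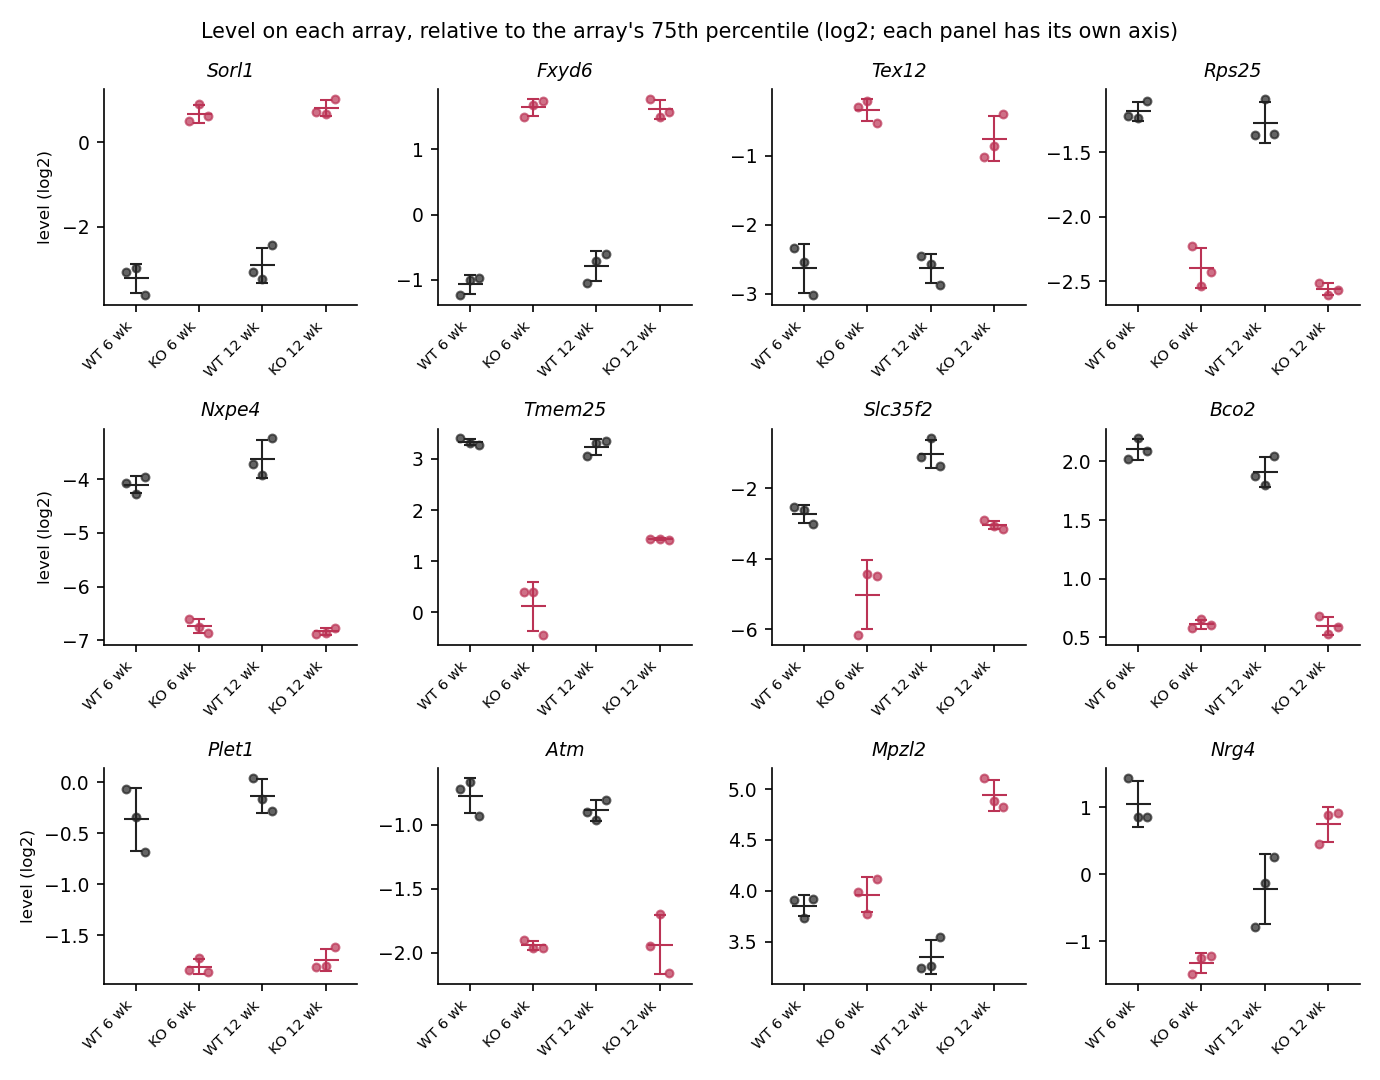
Level on each array (vertical, log2 relative to the array's 75th percentile, with its own scale in each panel) for 12 genes in the 4 groups; points are arrays and bars the mean ± SD of 3 arrays. In 10 panels wild type (black) and knockout (red) are apart the same way at both ages; Mpzl2 parts at 12 weeks and Nrg4 changes direction between the ages.

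The probes of a gene often disagreed. Of the 157 genes 39 had more than 1 tested probe, and the median gap between their largest and smallest log2 difference on average was 0.32, against 0.14 over the 3732 such genes of the array. The gap was at least 1 in 4 of the 39 (10.3%, against 1.47%), namely Sorl1, Ift46, Arid3b and Rps25. All probes were called in 11 genes, none in 19, and some but not all in 9. For this split no share over all genes was taken, so it is not read as particular to the members. Ift46, part of the transport machinery of cilia, was called in opposite directions by its probes. Its lower probe read 4.07, 4.12 and 4.05 in wild type and 4.35, 4.45 and 4.52 in knockout at 6 weeks, a 1.28-fold rise (limma, adjusted p 0.0149). Its upper probe read -3.00, -2.51 and -2.96 against -5.44, -4.05 and -4.15, a fall of at least 2.65-fold, with 2 of the 3 knockout arrays well above background. At 12 weeks the lower probe was again 1.28-fold higher (limma, adjusted p 0.0312). The upper was at least 3.23-fold lower, with 1 of the 3 knockout arrays well above background. The upper probe entered the tests only through wild type arrays, where it was high, so that its p is no support and is not given. Each of the 4 calls of these probes ended with at least 1 array left out, up to an adjusted p of 0.106 (limma) for the lower probe at 12 weeks without replicate 1 of the 12-week knockout. With slide as a fixed or a random block, neither probe was called at 6 weeks.

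Rps25, a protein of the small ribosomal subunit, was called by its upper probe and not by its lower probe, the sequences of which are given above. The lower probe read 6.87, 6.82 and 6.91 in wild type and 6.89, 6.89 and 7.03 in knockout at 6 weeks, and its log2 difference on average was 0.00 ± 0.05 (SE). The upper probe read -1.22, -1.23 and -1.10 against -2.23, -2.53 and -2.43 at 6 weeks, and -1.37, -1.09 and -1.36 against -2.51, -2.61 and -2.57 at 12 weeks. The upper probe was 2.32-fold and 2.45-fold lower with no overlap (limma, adjusted p 0.000133 and 0.000251). C2cd2l, picked after its values were seen, was the other gene called in opposite directions on average, by log2 -0.47 and 0.39 (adjusted p 0.00952 and 0.0137). Over the array 15 of the 3732 genes (0.402%) had such opposite calls. The 2 probes of Arid3b, a DNA-binding protein, had average log2 differences of 0.06 and -1.38, neither called. What the probes of these genes bind besides the named transcript was not tested.

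**Figure D5:**
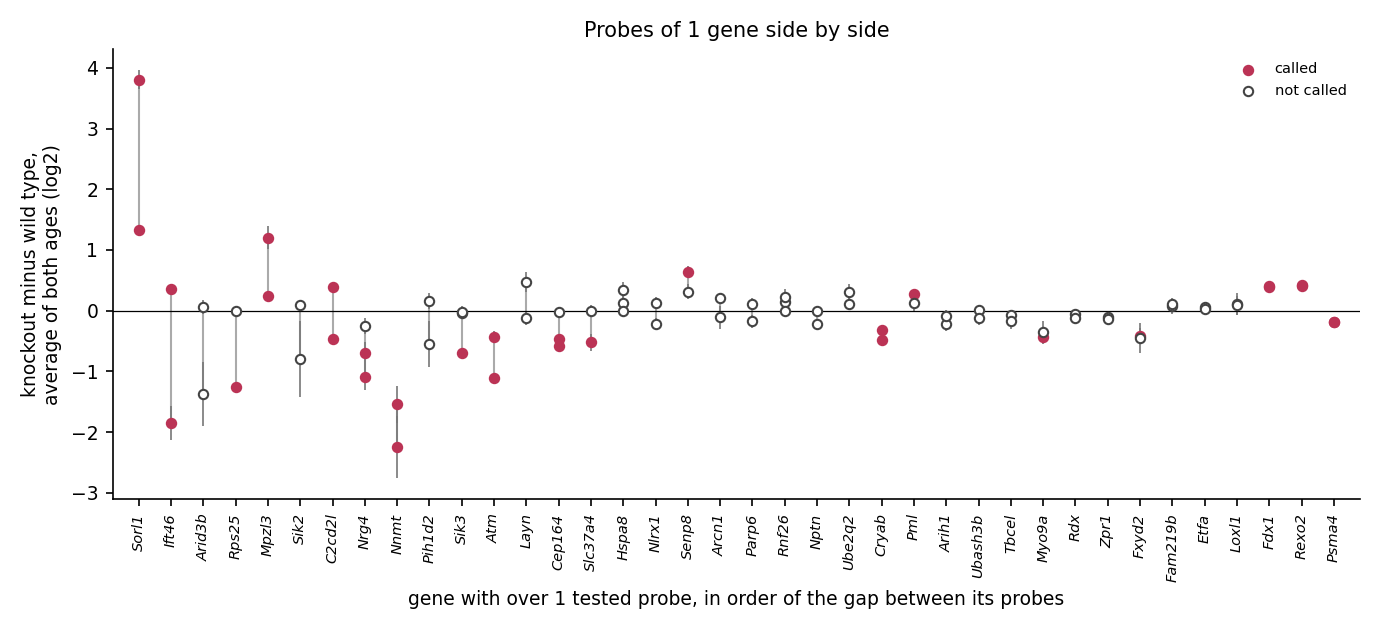
Log2 difference between knockout and wild type, average of both ages (vertical, with SE of the limma fit), of the tested probes of genes that have more than 1 (horizontal, in order of the gap between probes). Filled points were called; the widest gaps are those of Sorl1 (1.33 and 3.81) and Ift46 (0.36 and -1.85).

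Changes with age among the members were about as frequent as over the array. Between 6 and 12 weeks 26 members were called in wild type (8.7%, against 8.36% of all tested probes) and 21 in knockout (7.02%, against 6.32%). The genotype difference itself differed between the ages for 28 members (9.36%, against 9.68%). These shares lie near the background and say nothing particular to the members. The largest such change was that of Nrg4, a growth factor of the epidermal growth factor family that signals through ErbB receptors, 4.68 Mb above Il18.

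The Nrg4 probe of the lowest coordinate read 1.44, 0.85 and 0.85 in wild type and -1.50, -1.26 and -1.22 in knockout at 6 weeks. On the 12-week arrays it read -0.79, -0.13 and 0.25 against 0.44, 0.88 and 0.92. Knockout was thus below wild type at 6 weeks and above it at 12 weeks, with no overlap at either age. The fall of 5.18-fold and the rise of 1.96-fold had adjusted p of 0.000409 and 0.0499 (limma), and the difference between ages was log2 3.34 ± 0.36 (SE, adjusted p 0.00095). The 12-week call ended with any of 10 arrays left out, up to an adjusted p (limma) of 0.149 without replicate 3 of the 12-week knockout. With slide as a fixed or a random block the 12-week call of this probe also ended, and its 6-week call stayed. A further Nrg4 probe was 4.26-fold lower at 6 weeks and 3-fold higher at 12 weeks (limma, adjusted p 0.000151 and 0.00251). The remaining one was at least 6.41-fold lower at 6 weeks (limma, adjusted p 0.000441), with 2 of the 3 knockout arrays well above background. Its log2 difference at 12 weeks was 0.50 ± 0.30.

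Slc37a4, the glucose-6-phosphate transporter of the endoplasmic reticulum that liver needs to release glucose, changed direction with 1 of its 2 probes. This upper probe read 6.87, 6.70 and 6.76 in wild type and 5.89, 6.07 and 6.18 in knockout at 6 weeks, a 1.66-fold fall (limma, adjusted p 0.00674). The levels at 12 weeks were 5.59, 6.00 and 5.80 against 6.74, 6.28 and 6.54, a 1.65-fold rise (adjusted p 0.0147) that was lost with either of 2 arrays left out, up to 0.056 without replicate 1 of the 12-week knockout. Its lower probe had log2 differences of -0.56 and -0.49, neither called, and was lower on average (-0.52, adjusted p 0.0269), a call that ended with either of 2 arrays left out, up to 0.0594. Nectin1, an adhesion molecule of cell junctions, went the opposite way, 1.59-fold higher at 6 weeks and 1.31-fold lower at 12 weeks (adjusted p 0.00117 and 0.0295). Its 12-week call was lost with any of 4 arrays left out, up to 0.102 without replicate 3 of the 12-week knockout. The remaining members called at both ages in opposite directions were those of Hykk, a kinase of hydroxylysine, and the transcript 1810046K07Rik. The 6-week Hykk call ended with any of 10 arrays left out and the 12-week call with any of 6 (limma, adjusted p up to 0.139). The transcript was 2.73-fold lower at 6 weeks and 3.35-fold higher at 12 weeks (limma, adjusted p 0.0108 and 0.0109). With slide as a fixed block both Nectin1 calls ended, as did the 6-week calls of Hykk, 1810046K07Rik and the upper Slc37a4 probe. Of these only the 6-week Hykk call also ended with slide as a random block.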

How the data were processed

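Per the file headers, the authors quantified 12 1-colour arrays with Agilent Feature Extraction 10.7.3.1, and the deposited processed signal is an intensity already corrected for background and not scaled between arrays. From it log2 levels were computed relative to each array's 75th percentile, with control and outlier spots left out and spots of a probe averaged. Probes entered the tests if some group had all 3 arrays well above background, which left 29806 of 55681 probes. In limma 3.58.1 (R 4.3.3), lmFit and eBayes were run on 4 group means, leaving 8 residual degrees of freedom, with p-values adjusted by Benjamini-Hochberg, threshold 0.05, and errors are SE of that fit unless SD is written. The script was tested on simulated data. Among tested probes 13 values were missing and those arrays were dropped for that probe. Current symbols came from a RefSeq table by accession, symbol or synonym. Positions are those of the files (mm9), and distances run between probe centres. No depth applies to arrays, and their number limits precision.

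Members, lists and tests were chosen with earlier results of these data known. Named genes are the 12 largest rises and falls on average that do not overlap at either age, the 5 largest in each direction at each age, for age and for the difference between ages, those within 0.5 Mb of Il18, the 5 with the widest gap between probes and up to 4 of each list by p; 1 gene so chosen is counted but not reported here. The alternatives were other normalizations, filters, slide and replicate blocks, 1 probe a gene, the deposited value table and leaving out each array.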

Additional observations from a re-analysis of the deposited data

Results flagged for a closer look

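For 11 of the genes named by the rule, the genotype difference at 12 weeks minus that at 6 weeks passed limma's test (Benjamini-Hochberg adjusted over all tested probes). It was positive, on the log2 scale, for Nrg4 (3.34, adjusted p 0.00095), Mpzl2 (1.48, adjusted p 0.00117), the upper probe of Slc37a4 (1.46, adjusted p 0.00219), Tmem25 (1.41, adjusted p 0.0115), Hykk (0.96, adjusted p 0.00997) and Fdx1 (0.56, adjusted p 0.0364). It was negative for Nectin1 (-1.05, adjusted p 0.0012), Il10ra (-0.60, adjusted p 0.0196), Scamp5 (-0.58, adjusted p 0.0491), Mpi (-0.56, adjusted p 0.0459) and Bace1 (-0.51, adjusted p 0.0246). With 1 array left out, the largest adjusted p was 0.0856 for Fdx1, 0.0512 for Il10ra, 0.111 for Scamp5, 0.106 for Mpi and 0.062 for Bace1. Of all tested members 9.36% were called for this difference, near the 9.68% of all probes. With slide as a fixed block 19 members were called for it in place of 28 (6.35%, against 6.24% of all probes).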

How the results depend on the processing

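Of 100 differences of genes chosen by the naming rule, 87 were called, and of these 0 reversed under the 23 alternatives run. Of the 87, 43 stayed called under every alternative that could test them, 68 with each array left out in turn, 55 with slide as a fixed block and 75 with slide as a random block. Under slide as a fixed block the called members numbered 22 at 6 weeks (7.36%, against 2.4% of all probes) and 28 averaged over ages (9.36%, against 1.63%). They numbered 16 alike at both ages (5.35%, against 0.319%) and 9 for age in wild type (3.01%, against 3.08%). As a random block slide gave 43 (14.4%, against 5.54%), 57 (19.1%, against 4.41%), 21 (7.02%, against 0.5%) and 12 (4.01%, against 4.49%) in the same order. Within slide 2, 11 members were called at 12 weeks (3.68%, against 0.272%). With these as the 12-week calls and the 6-week calls over all arrays, 10 were called alike at both ages (3.34%, against 0.0671%). This alternative was added after seeing the data. Without the filter on dim probes, over 539 members in place of 299, the counts were 21 alike at both ages (3.9%, against 0.244% of all probes), 13 for age in wild type (2.41%, against 2.39%), 12 for age in knockout (2.23%, against 1.38%) and 12 for the difference between ages (2.23%, against 2.41%). The cause was not tested. With an array left out, the 6-week counts ran from 62 (20.7%, against 11.1% of all probes, without replicate 2 of the 6-week knockout) to 105 (35.1%, against 25.7%). Those at 12 weeks ran from 34 (11.4%, against 2.53%, without replicate 3 of the 12-week knockout) to 52 (17.4%, against 6.56%). Averaged, they ran from 78 (26.1%, against 11.9%) to 102 (34.1%, against 21.9%). Alike at both ages, they ran from 22 (7.36%, against 0.463%) to 34 (11.4%, against 1.65%). For age in wild type they ran from 11 (3.68%, against 4.22%, without replicate 3 of the 6-week wild type) to 42 (14%, against 15.2%, without replicate 1 of the 12-week wild type). For age in knockout they ran from 11 (3.68%, against 2.44%, without replicate 2 of the 12-week knockout) to 21 (7.02%, against 5.37% to 7.3%). For the difference between ages they ran from 20 (6.69%, against 6.41% to 7.63%) to 39 (13%, against 13.5%). Each other alternative gave counts within 1.5 times those reported.

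Same-numbered arrays did not pair: over 18 pairs their deviations correlated at -0.07 to 0.16, with 2 over 0.1. With a replicate block the counts were 82 at 6 weeks, 48 at 12 weeks, 90 averaged, 29 alike at both ages, 24 and 19 for age in wild type and knockout, and 23 for the difference between ages. Probes not well above background give bounds, and 3 arrays a group limit what small differences can pass.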
